A study of Mus musculus with 6 samples.

Results

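The myelin structural genes examined here are Mbp, Mag, Mog, Mobp, Cnp, Cldn11 and Mal, taken by gene symbol from a table of 22057 genes. All 7 are in that table, and 6 of them passed a filter on low values (a mean of at least 10 normalized counts over the 6 libraries), which left 17068 genes to test. The RNA came from neural progenitor cells in culture, precursors that can give both neurons and glia. Every sample carries the genotype label p53-null, so p53 is missing in both groups. The EF group is cells of mice 62, 68 and 69 after 4 days in stem cell medium with EGF, FGF and heparin (n = 3), and the series names it as the control. The PDGFA group (n = 3) comes from these 3 mice too, kept 4 days with PDGFA, for which the labels give 20 ug/ml, a unit that was taken as written and could not be checked here. The labels do not give the strain, the age of the mice or the p53 allele. The media differ both by the factors taken away and by the factor added, so each difference below is between the 2 media.

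Oligodendrocytes wrap axons of the central nervous system in myelin, a stack of membrane that is compacted where its inner faces meet. Myelin basic protein (Mbp) and Mobp lie on the inner face of compact myelin. Cnp and Mag belong to the uncompacted layers, Cldn11 forms the tight junctions between the layers, Mog sits on the outermost surface, and Mal is a small membrane protein that sorts lipids and proteins to myelin. During differentiation Cnp appears early and Mog is among the last to appear. The transcription factors Sox10 and Myrf drive many of these genes. In bulk RNA, fewer cells of a type and less RNA per cell cannot be told apart, and a count of RNA says nothing of whether membrane was made.

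Promoters were read from RefSeq (GRCm38.p6), which gave a sequence for Cnp, Cldn11, Mag, Mobp, Mog and Mal. The most upstream start of each gene was used, with the 250 bases before it. The words CTGGCAC and CTGGTAC, forms of the motif of Myrf, and ACAAAG and ACAATG, forms of the motif of Sox factors, were searched on both strands. These motifs were chosen after the sequences had been seen. Shown here, 5′ to 3′ on the strand of the gene, are the 4 promoters that hold either motif, with matches in capitals. Bases in annotated exons of the 7 genes were cut, and exons of other genes were not checked. This left 215 bases for Cnp and Mobp and 250 for Mag and Mog. Distances below are to the RefSeq start, not to the end of the printed stretch.

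Cnp: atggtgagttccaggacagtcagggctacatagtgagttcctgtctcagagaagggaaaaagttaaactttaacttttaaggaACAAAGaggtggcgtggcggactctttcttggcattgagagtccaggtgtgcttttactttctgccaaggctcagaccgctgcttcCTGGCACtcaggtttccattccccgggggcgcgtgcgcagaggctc

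Mag: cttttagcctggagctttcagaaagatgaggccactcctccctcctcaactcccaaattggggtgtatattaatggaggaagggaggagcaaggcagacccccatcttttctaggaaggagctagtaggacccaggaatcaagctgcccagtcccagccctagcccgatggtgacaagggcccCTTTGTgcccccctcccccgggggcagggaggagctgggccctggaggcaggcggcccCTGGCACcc

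Mog: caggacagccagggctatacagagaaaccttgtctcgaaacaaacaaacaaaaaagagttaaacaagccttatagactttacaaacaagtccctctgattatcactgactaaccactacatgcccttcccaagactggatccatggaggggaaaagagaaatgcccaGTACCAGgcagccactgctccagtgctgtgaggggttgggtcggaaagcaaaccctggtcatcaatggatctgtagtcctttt

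Mobp: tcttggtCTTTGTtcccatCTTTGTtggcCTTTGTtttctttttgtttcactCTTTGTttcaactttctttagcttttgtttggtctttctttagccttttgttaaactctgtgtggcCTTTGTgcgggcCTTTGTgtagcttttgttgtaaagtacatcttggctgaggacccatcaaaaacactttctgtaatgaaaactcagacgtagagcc

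The stretches are chr11:100574689-100574903 on the plus strand for Cnp, chr7:30914923-30915172 on the minus strand for Mag, chr17:37023399-37023648 on the minus strand for Mog and chr9:120149492-120149706 on the plus strand for Mobp. A Myrf word stood in Cnp, Mag and Mog, starting 81, 9 and 83 bases before the start site, and in none of Mobp, Cldn11 and Mal. Over all 27025 genes with such a promoter, 5.88% hold a Myrf word. Mobp held the Sox word ACAAAG 6 times, each on the opposite strand as CTTTGT, and Cnp and Mag held it 1 time each. A Sox word is in 25.4% of the promoters, and 1 of the 27025 genes, Mobp itself, had 6 or more matches. A match is a string of letters and not a measured binding site.

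In EF the libraries held 27270246 to 30151469 reads and in PDGFA 34812800 to 39601349. Values are normalized counts, reads scaled by a size factor for each library. Fold changes are differences of log2(normalized count + 1) with their standard error (SE), and adjusted p-values are from limma with Benjamini-Hochberg adjustment over the 17068 genes. The 6 tested myelin genes were each called higher in PDGFA (adjusted p under 0.05), where 21.8% of tested genes were. The count is not support by itself, since Mag, Mog and Mobp had EF means of 2.40, 0 and 0.426 and passed the filter only through PDGFA. Between the groups none of the 7 genes overlapped, which held in this direction for 26.8% of the 22057 genes. With edgeR's quasi-likelihood test and with DESeq2 on the recovered reads the same 6 genes were called, beside 21.0% and 23.1% of genes, and with the mouse as a block beside 18.8%.

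**Figure D1:**
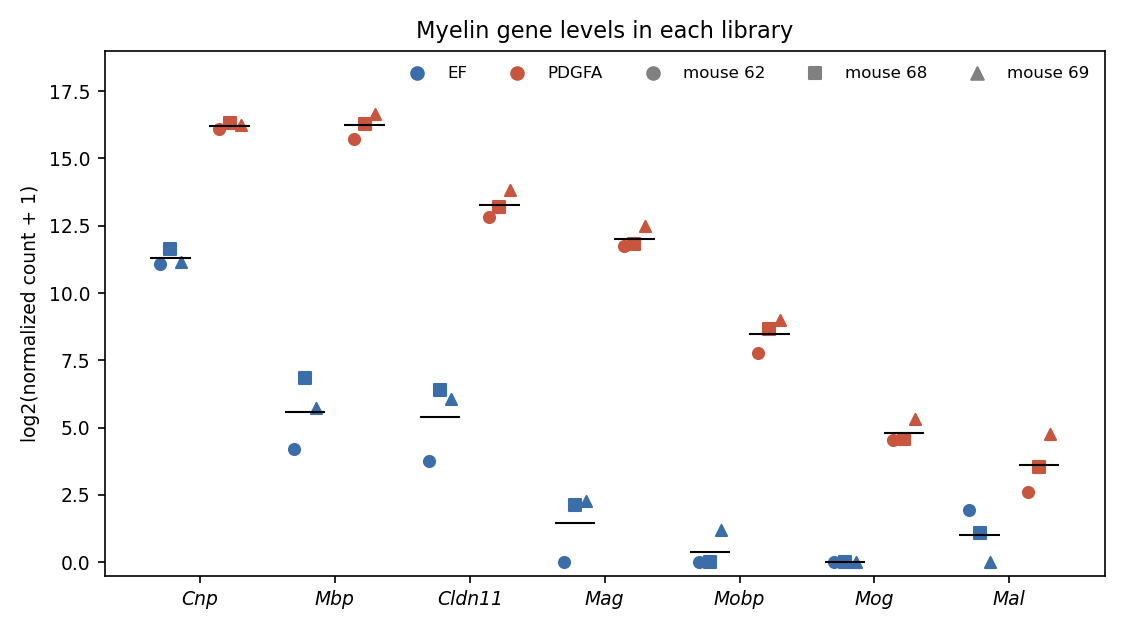
Level of each myelin gene (log2 of the normalized count + 1, vertical axis) in the 3 EF (blue) and 3 PDGFA (red) libraries, with 1 symbol per mouse and a bar at the mean. In every gene the 3 PDGFA libraries lie above the 3 EF libraries, Cnp starts highest in EF, and Mog and Mal are the lowest in PDGFA.

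Of the proteins of uncompacted myelin, Cnp, an enzyme of cyclic nucleotides that keeps cytoplasmic channels open, was already read in EF. Cnp (chromosome 11, 100574904 to 100591729) had EF levels of 2177, 3149 and 2258 normalized counts (mice 62, 68 and 69, in this order throughout). In PDGFA it had 70138, 80711 and 77553. Every PDGFA library was thus far above every EF library, and the mice were close to each other within each medium. On the log2 scale Cnp rose by 4.93 (SE 0.18, adjusted p = 9.22e-06), the ratio of the means 30.1. By its level per exon length Cnp ranked 2113 of 16699 genes in EF and 21 in PDGFA. Cnp shares 154 exon bases with Dnajc7 on the other strand. No source used here says that the counting used strand, so reads of the shared bases cannot be told apart. Dnajc7, a chaperone partner, had means of 4431 in EF and 6297 in PDGFA, and its part in the Cnp values was not tested.

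Mag, a sialic acid-binding adhesion protein that faces the axon (chromosome 7, 30899176 to 30914873), was almost unread in EF. Its reads were 0, 3 and 3 there, against 4007, 3751 and 6359 in PDGFA. In normalized counts Mag went from 2.40 ± 2.09 to 4227 ± 1277 (SD, n = 3). The 6 EF reads make the size of the rise loose: the ratio of the pooled reads was 1911, with a 95% counting interval of 878 to 5209, which covers counting error only. The log2 fold change was 10.54 (SE 0.61, adjusted p = 2.71e-05), and 9.80 without EF 62, the library with 0 reads. It depends on the pseudocount, with 10.98 at 0.5 and 9.16 at 5.

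In compact myelin, Mbp is the basic protein that holds the inner membrane faces together (chromosome 18, 82475146 to 82585637). At the pseudocount of 1 its log2 fold change was as large as that of Mag within their errors. With a pseudocount of 5 it was 10.49, against 9.16 for Mag. The normalized counts of Mbp were 17.2, 113 and 52.4 in EF. They were 54645, 80137 and 102742 in PDGFA. Within EF the library of mouse 68 held the most and that of mouse 62 the least, a spread of 79.4% of the mean against 30.4% in PDGFA. The log2 fold change was 10.64 (SE 0.60, adjusted p = 2.62e-05), with 9.94 if EF 62 is left out and 11.26 if EF 68 is. Annotation gives Mbp 16 transcripts, and the table has 1 value for them together.

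Mobp, a small basic protein of compact myelin (chromosome 9, 120149707 to 120181484), was read 1 time in EF, in the library of mouse 69. In PDGFA it had 217, 409 and 505 normalized counts. The pooled ratio was 1014, with a 95% counting interval of 182 to 40076. The log2 fold change of 8.08 (SE 0.51, adjusted p = 3.76e-05) depends on the pseudocount at so low an EF level. The PDGFA library with the fewest Mobp reads held 256. Mobp shares 79 exon bases with Gm38642 on the same strand, which was not analysed here.

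Cldn11, the claudin of myelin tight junctions (chromosome 3, 31149920 to 31164324), had 12.4, 83.3 and 66.5 normalized counts in EF and 7341, 9310 and 14376 in PDGFA. In EF the library of mouse 62 stood below those of mice 68 and 69, as it did for Mbp. The log2 fold change was 7.87 (SE 0.66, adjusted p = 0.000121), and 7.04 without EF 62. Cldn11 ranked 12440 of 16699 genes per exon length in EF and 99 in PDGFA.

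Mog and Mal stayed low in both media. Mog, an immunoglobulin-like protein of the outermost lamella (chromosome 17, 37010743 to 37023398), had 0 reads in each EF library, which allows up to 2.87, 3.38 and 3.84 normalized counts for mice 62, 68 and 69. In PDGFA it had 26, 24 and 43 reads, or 22.1, 22.9 and 38.5 normalized counts. With 3 reads assumed for the pooled EF group, where 0 were seen, the level in PDGFA was 25.2-fold higher. This value takes the PDGFA reads as exact, so it is not a firm lower limit. Against the limits of the single EF libraries given above, which are higher, the fold is smaller. In the limma test of the log2 values, Mog was called higher in PDGFA (adjusted p = 0.000191). Its level in PDGFA was above that of 18.8% of the 16699 genes per exon length.

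Mal (chromosome 2, 127633226 to 127656695) had 3, 1 and 0 reads in EF and 6, 11 and 29 in PDGFA, with a mean over all libraries of 7.596 normalized counts, and was not tested. The pooled ratio was 9.34 (95% counting interval 3.41 to 35.7). With no filter on low values the adjusted p was 0.0256 in limma, with 19.3% of 22057 genes called higher, and 0.036 in edgeR's quasi-likelihood test, with 18.0%. The groups of Mal lay close to each other, 2.87 being the highest EF value and 5.09 the lowest PDGFA value.

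The differences between mice in PDGFA had an order that most of these genes shared. Mouse 62 was lowest and mouse 69 highest in Mbp, Mag, Mog, Mobp, Cldn11 and Mal, while in Cnp mouse 68 was highest. Over the tested genes the order of mouse 62 below 68 below 69 was found in 25.4%. The level of mouse 69 over that of mouse 62 was 1.88 for Mbp, 1.68 for Mag, 1.75 for Mog, 2.33 for Mobp, 1.96 for Cldn11, 5.10 for Mal and 1.11 for Cnp. On the log2 scale the median of the 6 tested myelin genes was 0.84, against -0.006431 over all tested genes, whose 90th percentile was 0.77. Each medium has 1 library per mouse, so these differences have no replicate of their own. The astrocyte markers Gfap and Aqp4 had this order in PDGFA too, Gfap with 72518, 93063 and 107416 normalized counts and Aqp4 with 14108, 15538 and 30416. Gpr17, a receptor of cells between precursor and oligodendrocyte, had the opposite order, with 108698, 90998 and 66537. The precursor markers Cspg4, Ptprz1, Lhfpl3, Olig1 and Olig2 had that opposite order too, C1ql1 that of the myelin genes, and Pdgfra neither. Among markers of newly formed oligodendrocytes, Tmem163 had the order of the myelin genes, Itpr2 the opposite order, and the others neither. The part of cell types in the order was not tested.

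**Figure D2:**
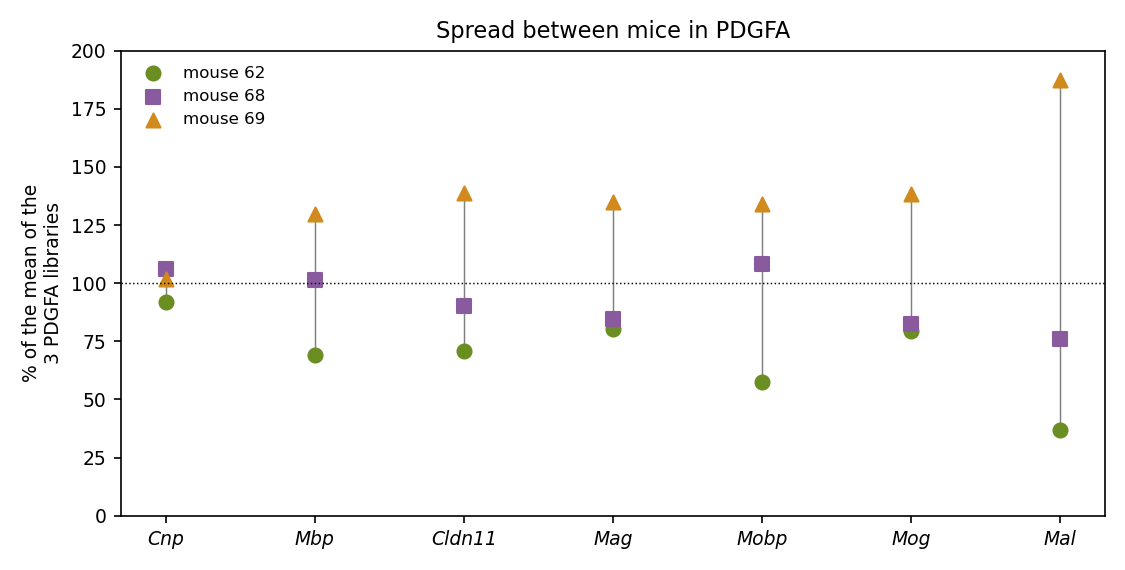
Each PDGFA library as a percentage of the mean of the 3 PDGFA libraries (vertical axis), by gene, with 1 symbol per mouse and a line over the range. Mouse 62 is the lowest in each of the 7 genes and mouse 69 the highest in all but Cnp, whose libraries lie within a ratio of 1.15 of each other.

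Levels of different genes can be compared only per length, and the answer turned on which length was used. Per kilobase of all annotated exons (GENCODE M21, GRCm38), the PDGFA level ran from Cnp (20922 ± 1491 normalized counts per kb, SD, n = 3) through Mbp (9349 ± 2841), Cldn11 (5531 ± 1941), Mag (1038 ± 314), Mobp (55.1 ± 21.4) and Mog (16.3 ± 5.44) to Mal (4.99 ± 3.90). Mbp and Cldn11 overlapped in their ranges over libraries, though Mbp was higher within each library, and no other neighbours in that order overlapped. Per kilobase of the median coding transcript, Mbp (40928 ± 12439) stood above Cnp (32301 ± 2303) in the mean, and these overlapped. Mobp, whose annotated exons span 6849 bases but whose median coding transcript has 498, moved to 757 ± 294, and it kept its place. The files do not show which transcripts were read.

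Within each library the ratio of Mbp to Cnp, which no size factor can change, was 0.00792, 0.0358 and 0.0232 in EF. In PDGFA it stood at 0.779, 0.993 and 1.32. Of all reads of the 7 genes, Cnp held 94.0% to 98.5% in the EF libraries and 38.6% to 51.7% in PDGFA. Mbp held 0.780% to 3.36% and 40.2% to 51.1%. Thus nearly all myelin gene reads in EF came from Cnp, and in PDGFA most came from Cnp and Mbp together. Together the 7 genes made up 0.404%, 0.524% and 0.587% of the reads of the PDGFA libraries of mice 62, 68 and 69.

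**Figure D3:**
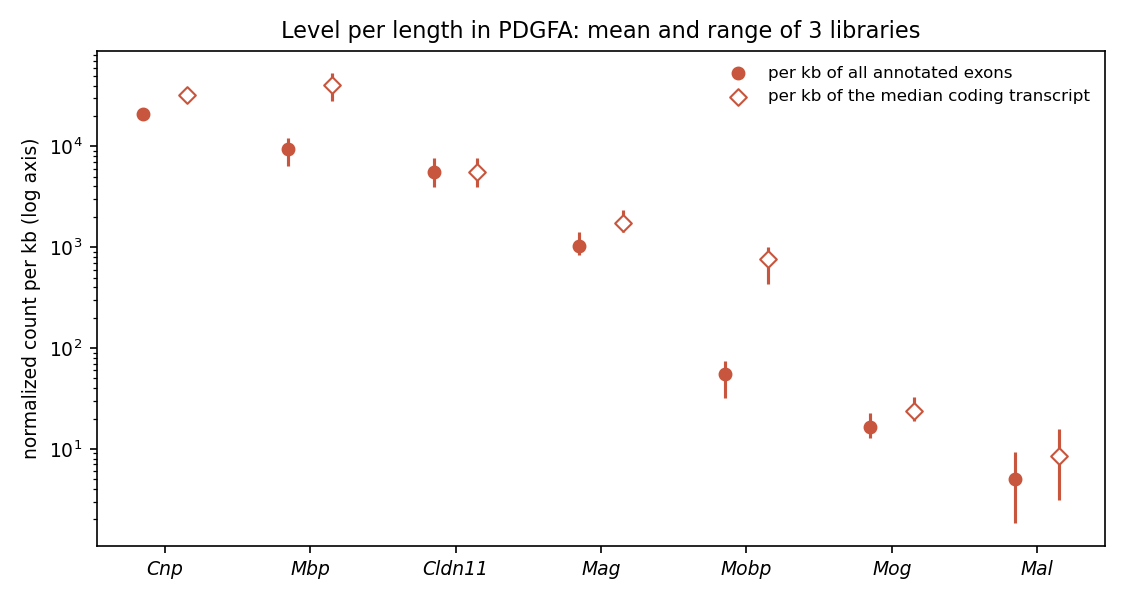
Level of each gene in PDGFA as normalized counts per kilobase (vertical log axis), with the mean and the range of 3 libraries, for all annotated exons (filled circles) and for the median coding transcript (open diamonds). The order is the same from Cldn11 down to Mal, and Mbp and Cnp change places.

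Other genes of myelin were grouped in lists and read against all tested genes, of which 21.8% were called higher and 18.0% lower, with a median log2 fold change of -0.0095. Of 17 tested other proteins of myelin membrane and the paranode, 12 rose, 0 fell, and the median was 3.06. Without EF 68, 15 rose, and without both libraries of mouse 69, 9 did. The count is not support by itself, since Opalin, Hapln2 and Cntn2 are among the 12. Their EF means were 5.39, 2.72 and 3.21, and they passed the filter only through PDGFA. Tmem88b had 13.4, 39.4 and 20.5 normalized counts in EF against 2890, 3067 and 2825 in PDGFA, without overlap. Plekhb1 rose by 3.23 on the log2 scale (SE 0.23, adjusted p = 5.91e-05) and Cd82, a tetraspanin, by 3.90 (SE 0.30, adjusted p = 8.47e-05). Among those not called were Gpm6b, Tspan2, Cd9 and Gjb1, a connexin of gap junctions (adjusted p 0.0680 to 0.269). Without EF 68, Gjb1 and Cd9 were called (adjusted p = 0.0232 and 0.0202).

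Enzymes that make the lipids of myelin were split. Of 11 tested, 5 rose and 2 fell, with a median of 0.67, and the number that fell was 4 without EF 62 and 1 without EF 68, EF 69, PDGFA 68 or PDGFA 69. Fa2h, which hydroxylates the fatty acids of galactolipids, had 0.958, 51.8 and 1.28 normalized counts in EF and 5524, 5354 and 4757 in PDGFA. Ugt8a, which makes galactosylceramide, had 83.3, 847 and 237 in EF and 6781, 9388 and 7380 in PDGFA. The EF library of mouse 68 stood above those of mice 62 and 69 in both genes. On the log2 scale the difference for Fa2h was 9.72 (adjusted p = 0.000585), with 11.27 without EF 68, 8.89 without EF 62 and 8.999 without EF 69. That of Ugt8a was 4.92 (adjusted p = 0.00161), with 5.78 without EF 68 and 4.12 without EF 62. Elovl7, a fatty acid elongase, rose by 5.34 (SE 0.43, adjusted p = 9.77e-05), and Acsbg1, an acyl-CoA synthetase, fell by 3.30 (SE 0.42, adjusted p = 0.000785).

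Among 13 tested transcription factors of the lineage, 7 rose and 3 fell, with a median of 1.504. Myrf, whose word stands in the promoters of Cnp, Mag and Mog, had 124, 357 and 155 normalized counts in EF and 22847, 24288 and 20595 in PDGFA, where mouse 69 was lowest. Nkx6-2 had 16.3, 24.8 and 48.6 in EF and 1104, 1275 and 2037 in PDGFA, where mouse 69 was highest, as in most of the myelin genes. Tcf7l2 and Sox8 rose by 2.03 and 1.61. Sox10 had 531, 1957 and 71.6 in EF and 17846, 19101 and 12954 in PDGFA, and its log2 fold change of 5.28 (adjusted p = 0.00572) was 6.38 without EF 68 and 4.01 without EF 69. Of 11 genes described as inhibitors of oligodendrocyte differentiation, 7 rose and 4 fell, with a median of 1.496. Id4 and Nfatc4 rose by 6.24 and 4.78, and Hes1 and Sox5 fell by 3.10 and 1.18. Nfatc4 had an EF mean of 2.88 and passed the filter only through PDGFA.

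Of 10 tested factors that carry, splice or translate Mbp RNA, 2 rose and 1 fell, with a median of -0.13. Leaving out EF 62 moved that median to -0.38, EF 68 to -0.060 and EF 69 to 0.063, where its sign changed. Fyn, a kinase that acts on the local translation of Mbp, and Tppp, a tubulin polymerization protein, rose by 1.14 and 1.16. Hnrnpa1 fell by 0.64 (adjusted p = 0.0394), a call that was lost without EF 68 or EF 69, without each single PDGFA library (adjusted p 0.0694 to 0.140) and with the mouse as a block (0.0829). Under each of these 0 genes of the list fell, and 4 fell without EF 62. Hnrnpa2b1, which binds the transport element of Mbp RNA, had 24738, 26155 and 41048 normalized counts in EF and 23309, 21451 and 19082 in PDGFA (adjusted p = 0.129).

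The relatives of Cldn11 and Mal went both ways. Of 10 tested claudins and junction partners 5 rose and 1 fell, with a median of 0.51 (0.28 without EF 62). Without PDGFA 68, 3 rose and the median was 0.26. Cldn10 had 146, 243 and 385 normalized counts in PDGFA, Cldn2 44.1, 82.1 and 59.1 and Cldn19 18.7, 40.1 and 16.1, all called higher (adjusted p 0.000554 to 0.00191). In EF these 3 claudins had 23, 5 and 2 reads in all. With EF means of 8.45, 1.70 and 0.638 they passed the filter only through PDGFA, so the count is not support by itself. Of 10 tested members of the MAL and MARVEL family 3 rose and 4 fell, with a median of -0.40, and 2 fell without PDGFA 62 or PDGFA 68. The median was -0.075 without PDGFA 62, -0.23 without EF 68, -0.66 without PDGFA 69 and -0.67 without EF 62. Cmtm5 rose by 2.77 (SE 0.26), and Marveld1 fell by 1.97 (SE 0.19). Pllp, the myelin protein plasmolipin, rose by 3.25, with 2.66 without EF 62 and 3.85 without EF 68. Cmtm7 fell by 2.95, or by 2.32 once EF 69 was left out.

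Mag is also a ligand in the inhibition of axon growth by myelin. Of 9 tested ligands and receptors of that pathway 3 rose and 1 fell, with a median of 0.37 (0.92 without EF 68 and 0.21 without EF 62). Lingo1 and Rtn4 rose by 1.496 and 1.54. Omg rose by 3.06 (adjusted p = 0.0129), with 4.01 without EF 68 and 2.43 without EF 62, and it was not called without both libraries of mouse 62 or of mouse 69 (adjusted p = 0.0692 and 0.104). Rtn4rl1, a Nogo receptor homologue, fell by 2.69 (adjusted p = 0.0155), a call lost without EF 68 (adjusted p = 0.0529), which left 0 genes of the list lower. It was -3.38 without PDGFA 69.

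**Figure D4:**
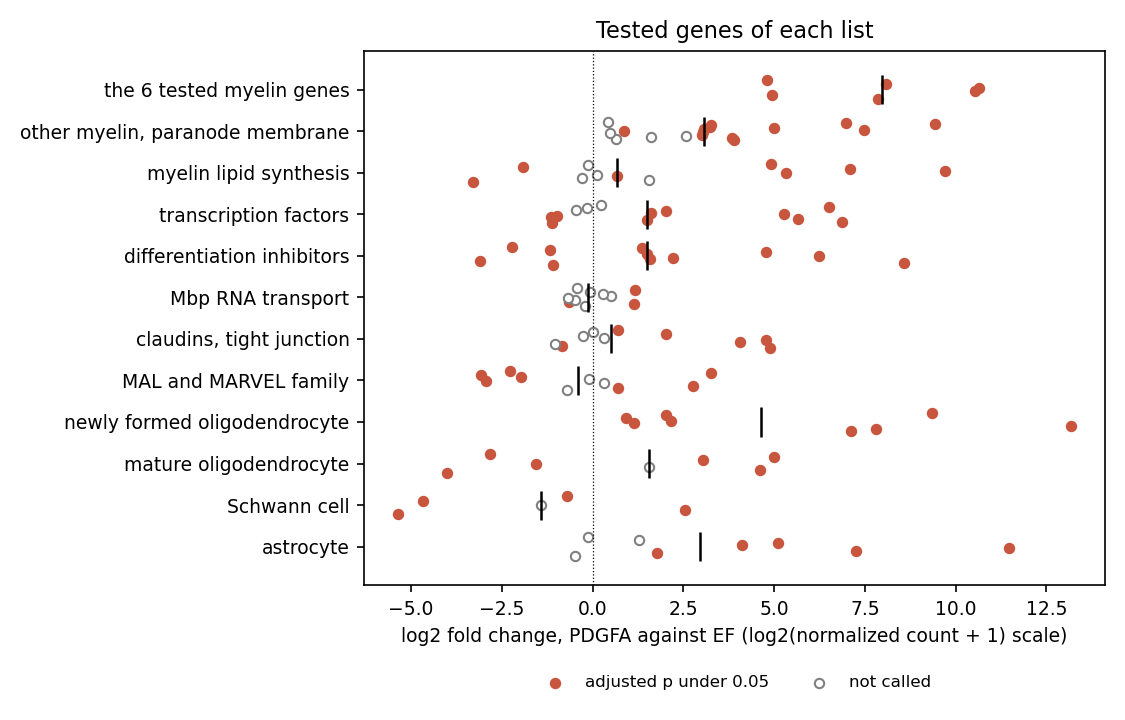
Log2 fold change of each tested gene (horizontal axis, PDGFA against EF), by list, filled where the adjusted p was under 0.05 and open where it was not, with a bar at the median. The myelin genes and markers of newly formed oligodendrocytes lie to the right of 0, while mature oligodendrocyte, Schwann cell and MAL family genes fall on both sides.

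Markers of cell types were set beside these values. The neural progenitor markers Nes, Sox2 and Vim were read in every EF library, with lowest normalized counts of 21108, 8502 and 30328. All 8 markers of newly formed oligodendrocytes rose (median 4.63), beside 21.8% of tested genes called higher. Their summed levels were 31833 to 36649 in EF and 171852 to 195153 in PDGFA. The count is not support by itself, since Enpp6, Bmp4 and Tmem163 had EF means of 5.36, 3.85 and 3.05 and passed the filter only through PDGFA. Of 7 tested markers of mature oligodendrocytes 3 were higher and 3 lower. Opalin, Apod and Hapln2 rose, but to at most 242, 61.8 and 36.7 normalized counts. With EF means of 5.39, 1.12 and 2.72, these 3 too passed the filter only through PDGFA. Hapln2 was not called without both libraries of mouse 68 or of mouse 69 (adjusted p = 0.0786 and 0.0591). Ermn, like Mal, was left out by the filter, with at most 13.4. Of those that fell, Trf is also an iron carrier, Anln also a cytokinesis protein, and Car2, a carbonic anhydrase, was not called without PDGFA 68 (adjusted p = 0.0510). Schwann cells, the myelinating cells of peripheral nerve, share Mbp, Mag, Cnp and Mal with oligodendrocytes. Of 5 tested Schwann cell markers 1 rose and 3 fell, with sums of 2999 to 6523 in EF and 1518 to 1989 in PDGFA. Prx, 1 of those that fell (adjusted p = 0.0355), lost its call under the mouse block (adjusted p = 0.101) and without EF 68, EF 69 or any single PDGFA library (0.0531 to 0.124).

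Of 8 astrocyte markers 5 were higher and 0 lower, beside 21.8% of tested genes called higher. Their summed levels were 48246 to 87037 in EF and 173435 to 282353 in PDGFA. Aldh1l1, Slc1a3 and Slc1a2 were not called (adjusted p 0.0512 to 0.771), with log2 fold changes of -0.48, -0.12 and 1.27. Slc1a2 was called without EF 68 (adjusted p = 0.00472). Of 4 tested endothelial and mural markers 3 were higher, with sums of 89.1 to 177 in EF and 1267 to 1599 in PDGFA, and 1 was lower, a call lost with the mouse as a block, without EF 68 and without any single PDGFA library. Rgs5, 1 of the 3 higher, had an EF mean of 1.88 and passed the filter only through PDGFA. Pecam1, the lower marker, had a PDGFA mean of 9.54 and passed it only through EF. Both tested ependymal markers were higher, with sums of 110 to 258 and 622 to 924. Folr1, 1 of them, had 1 read in EF and passed the filter only through PDGFA. Without PDGFA 69 it was not tested, and the other marker was still called. Of 2 tested fibroblast markers 1 was higher and 1 lower, with 0 lower without EF 68 or PDGFA 69 and 2 lower without PDGFA 62. Fibroblast sums were 74.1 to 150 in EF and 728 to 925 in PDGFA. The higher marker was Pdgfrb, which is also 1 of the 3 higher endothelial and mural markers. Most of each fibroblast sum in PDGFA was Pdgfrb, with 901, 711 and 832 normalized counts. The lower marker, Col1a1, had 49.8, 92.3 and 44.7 in EF and 24.6, 14.3 and 17.9 in PDGFA. Markers of oligodendrocyte precursors were split, with 2 of 8 higher (4 without EF 68) and 3 lower (1 without both libraries of mouse 68 or of mouse 69). They summed to 162833 to 314979 in EF and 174952 to 254101 in PDGFA. A large part of the PDGFA sums was Gpr17, 1 of those higher, with 108698, 90998 and 66537 there against 123, 3702 and 24.3 in EF. Of neuronal markers 1 of 6 rose, with sums of 25211 to 30897 and 25924 to 34614. Microglial markers summed to 11.5 to 44.7 in EF and 5.73 to 8.96 in PDGFA. The part of these cell types in the values of the myelin genes was not tested.

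The genes with the most similar profile were found by the root mean square difference of log2 values over the 6 libraries, each gene centred on its own mean. Among the nearest to the mean profile of the 6 tested myelin genes were Nfe2l3 (0.32 on the log2 scale), Synpo2 (0.39), Bcas1 (0.44) and Tubb4a (0.54). Nfe2l3 went from 4.16 ± 1.16 to 1153 ± 38.3 normalized counts, and Tubb4a, a tubulin of oligodendrocytes, from 358 ± 178 to 37883 ± 2602. Nearest to Cnp was Sirt2, a deacetylase (0.11), and nearest to Mbp was the complement gene C4b (0.22). Nearest to Cldn11 was Cbln2 (0.37). The log2 fold change of Cbln2, 7.99, moved to 6.86 without EF 62 and to 8.67 without EF 68. C4b had 10.61, and 9.89 without EF 62. Nfe2l3 and Cbln2, with EF means of 4.16 and 6.31, passed the filter only through PDGFA. Their log2 fold changes of 7.83 and 7.99 were 6.99 and 6.90 with a pseudocount of 5. For Mag, Mobp and Mog, at or near 0 in EF, this distance depends on the pseudocount, as does the mean profile that holds them, so none is given for these 3 genes. The 6 libraries fall in 2 groups, so a similar size of difference between the media makes a small value.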

How the data were processed

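RNA was measured in 6 libraries, 1 per mouse and medium, grouped and numbered by their titles, per the labels. Total RNA (1.3 ug) was made into libraries with the NEBNext Ultra II kit, per the labels' protocols. The authors deposited normalized signal, that is counts of reads scaled by a size factor for each library. FastQC, STAR, DESeq2 and mm10 (GRCm38) are named, per the submitters' processing notes. The sources used here give neither the annotation nor the strand setting of the counting. Exon lengths, ranks per length and shared exon bases were taken from GENCODE M21 (GRCm38), which need not be the annotation behind the counts. Dividing each library by its smallest value above 0 gave whole reads for 100% of values (tolerance 0.001).

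Values were tested as log2(value + 1) with limma 3.58.1 (group as the only term, eBayes with a mean trend, two-sided, threshold 0.05) in R 4.3.3, after a filter that left out 4989 genes. The recovered reads were tested with edgeR 4.0.16 and DESeq2 1.42.0. The tests were checked on simulated data. The same mice are in both groups, so numbers pair the libraries, and a fit with the mouse as block was among the alternatives, beside other pseudocounts, filters, scalings and leaving out libraries. Deviations from the group means correlated at -0.091, 0.11 and -0.11 for mice 62, 68 and 69. Named genes are the 7 genes, up to 4 called genes of smallest p per list, and the nearest profiles. The uncalled myelin membrane genes, Sox10, Hnrnpa2b1 and the cell type markers were named beside the rule, after their values were seen. The genes and lists were chosen with earlier results of these data known. Genes that the naming rule took but that are absent from the text are not reported here. P-values measure the spread between the libraries of 3 mice.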

Additional observations from a re-analysis of the deposited data

How the results depend on the processing

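The 6 tested myelin genes kept their direction and their call under every alternative in which they could be tested, 18 for Mbp, Mag, Mobp, Cnp and Cldn11 and 16 for Mog. Mog left the test with a mean of at least 50 and without PDGFA 69, so 5 genes were tested and called there. Over the alternatives the log2 fold change ran from 4.83 to 5.10 for Cnp, 9.94 to 11.26 for Mbp, 9.16 to 10.98 for Mag, 7.04 to 8.41 for Cldn11, 6.06 to 9.88 for Mobp and 2.68 to 7.82 for Mog. For Mog and Mobp the ends came from a pseudocount of 5 and from the count tests, and both genes had at most 1 read in EF. The highest adjusted p was 0.00805, for Mog without both libraries of mouse 68. With the mouse as a replicate block 3213 genes were called higher and 2626 lower, against 3720 and 3076 without it, and no call of the 6 genes changed. Leaving out libraries or mice gave 1943 to 4271 genes higher and 1333 to 3818 lower. PDGFA 68 mattered most among single libraries (2245 and 1873 left), and leaving out mouse 68 in both media gave 1943 and 1333. With no filter on low values 7 of the 7 genes were called higher. The edgeR test of Mal with no filter was chosen after seeing the data. Depth limits Mog, Mal and the EF levels of Mag and Mobp.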
